A study of Mus musculus with 14 samples.

Results

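The genes of DNA replication licensing and of its activating kinase were examined in single mouse two-cell embryos made by somatic cell nuclear transfer (SCNT). They comprised 10 genes, namely Mcm2, Mcm3, Mcm4, Mcm5, Mcm6, Mcm7, Cdc6, Cdt1, Dbf4 and Cdc7, which are represented by 14 RefSeq transcript entries out of 25650 entries in each embryo's table and by 10 of 20242 gene symbols. The first 8 genes and Cdc7 were listed for their function, while Dbf4 was chosen by its measured difference between TSA(0-8h)+VC(8-15h) and TSA(0-8h) embryos. Its values in that contrast are therefore given as a description, with no test.

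Licensing is the loading of the MCM2-7 helicase ring onto replication origins before S phase. The origin recognition complex, Cdc6 and Cdt1 load the ring as an inactive double hexamer, geminin binds Cdt1 to prevent reloading, and the kinase Cdc7 with its regulatory subunit Dbf4 phosphorylates MCM subunits so that the helicase can fire. In the early mouse embryo, the proteins and transcripts for the first S phases are largely inherited from the oocyte, and transcription from the embryo's own genome becomes widespread at the two-cell stage.

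RNA was measured in 14 embryos of the strain label B6D2F1, with 1 library per embryo, and all of them were activated in strontium with cytochalasin B. Control embryos (n = 3) received no further agent. Trichostatin A (TSA), a histone deacetylase inhibitor, was given at 50 nM from 0 to 8 h after the commencement of activation, and vitamin C (VC) at 10 µg/ml either from 0 to 8 h or from 8 to 15 h. The treated groups were TSA(0-8h) (n = 3), TSA(0-8h)+VC(8-15h) (n = 3), TSA(0-8h)+VC(0-8h) (n = 2), VC(8-15h) (n = 2) and VC(0-8h) (n = 1), and the labels place the collection of every embryo at 28 h. The donor cell type is not in the labels, and no fertilized embryos were among the 14 samples, so each comparison is between cloned embryos. TSA(0-8h)+VC(8-15h) embryos are also called sequentially treated below, and embryos are named by group and replicate number.

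Between 3021540 and 13589389 reads were counted per embryo. The deposited values are RPKM, reads per kilobase of transcript scaled to 1000000 reads counted. At 1 RPKM or more, control embryos had 4818 ± 874 entries, TSA(0-8h) embryos 4001 ± 386 and sequentially treated embryos 5583 ± 122 (mean ± SD, n = 3 each). The summed RPKM of 10 oocyte marker genes ranged from 281 to 1219 over all embryos, and that of 11 two-cell stage marker genes from 7.58 in a control embryo to 1211. Of 12 cumulus and granulosa markers, 3 reached 1 RPKM in any embryo, Inha, Inhba and Fshr were at 0 in all 14, and the highest summed value of 144 RPKM in TSA(0-8h) replicate 3 was almost wholly Amhr2. Embryos that share a number in the library identifier are called a sequencing pool here (5, 6 and 3 embryos in pools 1 to 3). The labels do not say what this number stands for. Same-numbered control, TSA(0-8h) and sequentially treated embryos shared a pool. In a single embryo, fewer transcribing cells and less RNA per cell cannot be told apart.

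The sequence around the start site of several members has letters in common. Windows from 250 bases before to 50 bases after the start site were in the RefSeq promoter table (GRCm38.p6) for 9 of the 10 genes, with Mcm4 the exception. The E2F-type motifs TTTCCCGC, TTTGGCGC, TTTCGCGC and TTTGCCGC, searched on both strands, were found in the windows of Mcm3, Mcm5, Mcm6, Mcm7, Cdc6 and Cdt1, in those of Mcm3 and Cdt1 only after the start site. These are 6 of 9 genes, or 66.7%, against 704 of 27025 genes with a window (2.6%) and 15 of 44 genes of the wider replication lists described below (34.1%). E2F factors are known regulators of genes expressed at the entry into S phase. The windows of Mcm2, Dbf4 and Cdc7 held none of these letters, which says nothing about the factor. The upstream 250 bases of Cdc6, Mcm5 and Mcm7 are shown because these genes had values that did not overlap between sequentially treated embryos and controls, in opposite directions (Cdc6 and Mcm5 above, Mcm7 below). Cdt1 is not shown since its match began at position 33, after the start site. They lie at chr11:98907901-98908150 (plus strand), chr8:75109259-75109508 (plus strand) and chr5:138171884-138172133 (minus strand) of GRCm38.p6, and capitals mark the motif on either strand.
Cdc6: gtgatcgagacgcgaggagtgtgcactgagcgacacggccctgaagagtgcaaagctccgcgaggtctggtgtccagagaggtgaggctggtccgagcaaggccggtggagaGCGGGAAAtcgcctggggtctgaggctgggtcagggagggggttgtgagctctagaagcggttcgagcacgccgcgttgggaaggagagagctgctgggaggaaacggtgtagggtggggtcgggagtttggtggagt
Mcm5: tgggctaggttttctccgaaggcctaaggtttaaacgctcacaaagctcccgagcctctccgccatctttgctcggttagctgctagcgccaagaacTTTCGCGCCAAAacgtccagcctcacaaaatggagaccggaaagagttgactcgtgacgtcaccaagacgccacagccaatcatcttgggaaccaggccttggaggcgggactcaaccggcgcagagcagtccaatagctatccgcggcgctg
Mcm7: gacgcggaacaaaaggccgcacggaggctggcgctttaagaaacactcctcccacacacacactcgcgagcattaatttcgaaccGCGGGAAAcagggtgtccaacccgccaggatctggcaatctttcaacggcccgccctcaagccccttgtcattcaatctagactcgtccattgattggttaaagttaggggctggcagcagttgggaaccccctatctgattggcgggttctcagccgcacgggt
Positions are counted from the start site, with -1 the base before it. In Mcm5, TTTCGCGC at position -153 and the reverse complement of TTTGGCGC at -149 overlap in a single run. In Cdc6 the match began at -138 and in Mcm7 at -165, both on the reverse strand.

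The fitted comparisons called none of the 10 genes. Transcript entries were tested with limma on log2(RPKM+1), with Benjamini-Hochberg adjustment over all entries tested and a threshold of 0.05. The standard errors (SE) and p-values use a variance for each entry that is drawn towards a trend over all entries tested. An SE is therefore not the spread of that gene's own embryos alone. In the sequential treatment against control, 0 of the 9 member genes that passed the filter were called, against 1 of 3416 entries overall (0.0293%). In TSA(0-8h) against control, 0 of 6 were called against 3 of 2529 entries (0.119%), and in the sequential treatment against TSA(0-8h), 0 of 7 genes other than Dbf4 were called against 0 of 3243 entries (0%). Across all 14 embryos, the additive fit of TSA, early VC and late VC called 0 of 9 genes other than Dbf4 for TSA and for late VC, where 2 of 8249 entries were called for each term (0.0242%). The comparisons of the sequential treatment share their treated embryos, and the comparisons with control share the control embryos. Dbf4 is counted in the comparisons with control, which share 3 treated embryos each with the contrast that chose it, so its values there are not independent of the choice.

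At an unadjusted p under 0.05, the count was 3 of 9 member genes in the sequential treatment against control, where 18.4% of all entries passed, and 0 of 6 in TSA(0-8h) against control, where 15.2% passed. It was 1 of 7 in the sequential treatment against TSA(0-8h), where 18.6% passed, 1 of 9 other than Dbf4 for the TSA term (4.59% of entries) and 2 of 9 other than Dbf4 for late VC (6.32%). The limma test on recovered reads with voom weights, chosen after seeing the data, called 2 of 10 member genes in the sequential treatment against control, Cdc6 (log2 fold change 8.08, adjusted p = 0.000635) and Mcm7 (-6.34, adjusted p = 0.017), where 324 of 4098 entries were called (7.91%). It called 0 of 8 in TSA(0-8h) against control (138 of 3286 entries, 4.2%). In the sequential treatment against TSA(0-8h) it called 1 of 7 genes other than Dbf4, Cdc6 (6.28, adjusted p = 0.0434), against 281 of 3833 entries (7.33%). Cdc6 passed the filter of these tests only through the sequentially treated embryos, and Mcm7 only through the controls, the groups where they were higher.

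On the deposited scale, the entries tested did not centre on 0. Their median log2 fold change was 0.78 in the sequential treatment against control, -0.38 in TSA(0-8h) against control and 1.18 in the sequential treatment against TSA(0-8h), and scaling by the median of ratios moved these to -0.07, 0.01 and 0.00. For the members tested, the medians were 0.71, -1.88 and 2.41 (without Dbf4 in the last). Of these, 6 of 7 in the last comparison passed the filter only through the sequentially treated embryos and 4 of 6 in TSA(0-8h) against control only through the controls, so the medians of the members follow the filter in part and give no direction. Each log2 fold change below should be read against those medians.

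**Figure D1:**
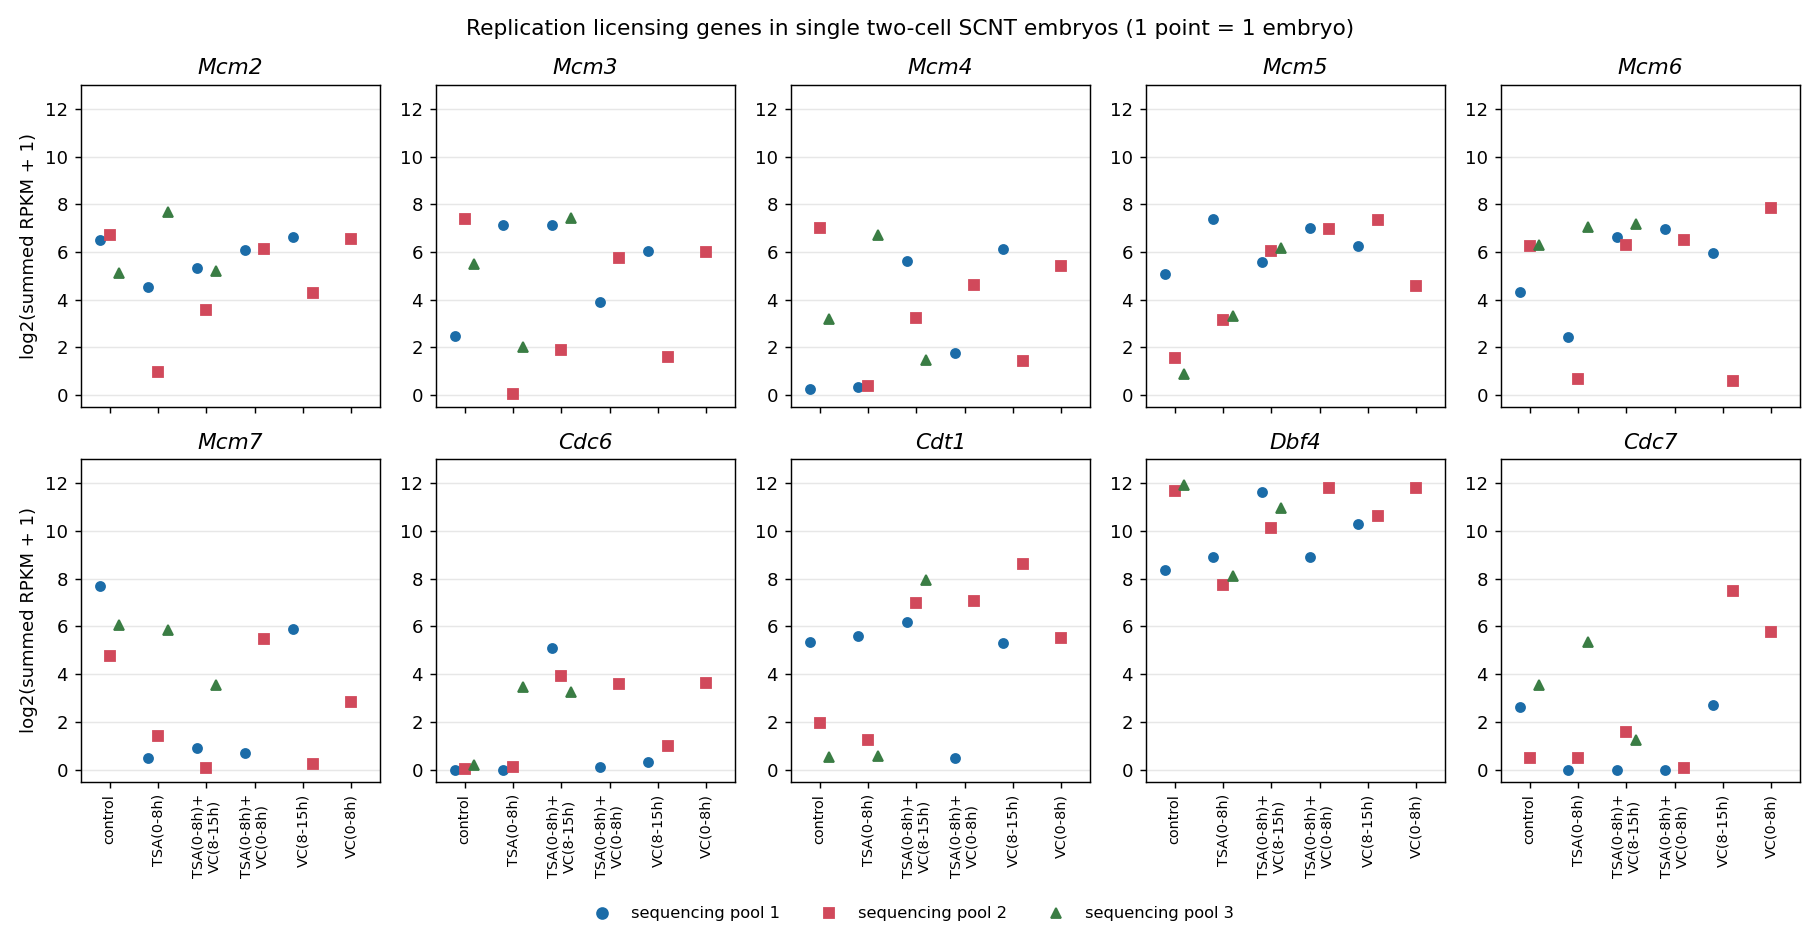
Log2(summed RPKM + 1) of each of the 10 genes (y axis) in the 14 embryos by treatment group (x axis), with 1 point per embryo and the sequencing pool as colour and marker. Cdc6 was at 0.144 RPKM or less in the 3 control embryos and at 8.63 to 33.2 RPKM in the 3 sequentially treated embryos, whereas Mcm3, for example, spanned 2.72 to 169 RPKM within the latter group.

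Cdc6 (mm9 chr11:98769115-98785254, plus strand), the ATPase that recruits the MCM ring to origins, was nearly undetected in control embryos. Its entry NM_011799 measured 0, 0.0316 and 0.144 RPKM in control replicates 1 to 3, which are 0, 1 and 9 reads. In sequentially treated replicates 1 to 3 it measured 33.2, 14.2 and 8.63 RPKM, or 664, 510 and 488 reads. The groups did not overlap, and the fitted log2 fold change was 4.02 (SE 1.08, adjusted p = 0.110), with differences of 5.09, 3.88 and 3.07 within pools 1 to 3. Since the control values are near 0, the size of this fold depends on the added 1 RPKM.

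Cdc6 in the other treatments fell on both sides. TSA(0-8h) embryos measured 0, 0.0833 and 9.91 RPKM, the last of which was within the range of sequentially treated embryos. TSA(0-8h)+VC(0-8h) embryos measured 0.0665 and 10.9 RPKM, VC(8-15h) embryos 0.264 and 0.991 RPKM, and the VC(0-8h) embryo 11.4 RPKM. Against TSA(0-8h) alone, TSA(0-8h)+VC(8-15h) differed by 2.91 on the log2 scale (SE 1.40, adjusted p = 0.281), and within pool 3 the difference was -0.18. The second Cdc6 entry, NM_001025779, was listed at 0 in all 14 embryos.

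Cdt1 (mm9 chr8:125091915-125097028, plus strand), the loading factor that geminin inhibits, had its values in the 3 sequentially treated embryos above all control and all TSA(0-8h) values. NM_026014 measured 39.8, 2.93 and 0.437 RPKM in control embryos, 47.9, 1.34 and 0.466 RPKM in TSA(0-8h) embryos and 70.8, 124 and 243 RPKM in sequentially treated embryos. The log2 fold change was 4.41 against control (SE 1.54, adjusted p = 0.131) and 4.56 against TSA(0-8h) (SE 1.73, adjusted p = 0.150). In pool 1 the differences were small, at 0.82 against control and 0.55 against TSA(0-8h), while in pools 2 and 3 they were 4.99 and 7.41 against control and 5.74 and 7.38 against TSA(0-8h).

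The highest Cdt1 value of the series was in a VC(8-15h) embryo. The VC(8-15h) embryos measured 38.5 and 391 RPKM, the TSA(0-8h)+VC(0-8h) embryos 0.42 and 132 RPKM, and the VC(0-8h) embryo 45.2 RPKM. Over all 14 embryos the late VC term was 4.50 (SE 1.36, unadjusted p = 0.00178, adjusted p = 0.456), and the 5 late VC embryos ranged from 38.5 to 391 RPKM. Cdt1 lies within the long gene model Gm20388 of the mm9 annotation, so reads of both models could not be separated here.

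Mcm7 was lower in every sequentially treated embryo than in every control embryo, as was the longer Dbf4 entry described below. NM_008568 (mm9 chr5:138605811-138613650, minus strand) measured 207, 26.2 and 65 RPKM in control embryos and 0.865, 0.0537 and 10.8 RPKM in sequentially treated embryos, where the read counts were 9, 1 and 317. The log2 fold change was -4.66 (SE 1.73, adjusted p = 0.145), and the within-pool differences were -6.80, -4.69 and -2.49. On recovered reads with voom weights, a test chosen after seeing the data, it was -6.34 with an adjusted p of 0.017 by limma. That is past the threshold, but Mcm7 entered this test only through the controls, where it was higher. The gene hosts Mir25, Mir93 and Mir106b and overlaps an end of Cops6 and of Ap4m1 on the other strand, and the strand of counting is not given in the sources used here.

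Low Mcm7 was also seen without late VC. TSA(0-8h) embryos measured 0.414, 1.66 and 56.2 RPKM and overlapped the controls (log2 fold change -3.59, SE 2.03, adjusted p = 0.447). TSA(0-8h)+VC(0-8h) embryos measured 0.64 and 43.2 RPKM, VC(8-15h) embryos 59.2 and 0.19 RPKM, and the VC(0-8h) embryo 6.07 RPKM. Of the 14 embryos, 9 had Mcm7 at 1 RPKM or more, the fewest of any MCM subunit.

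Mcm5 (mm9 chr8:77633427-77652338, plus strand), which with Mcm2 forms the gate through which DNA enters the ring, was higher in the sequentially treated embryos. NM_008566 measured 32.5, 1.96 and 0.839 RPKM in control embryos and 47.5, 64 and 71.4 RPKM in sequentially treated embryos. These groups did not overlap, but the spread of the controls was wide and the log2 fold change of 3.43 (SE 1.66) had an adjusted p of 0.283. Within pool 1 the difference was 0.53, and it was 4.46 and 5.30 in pools 2 and 3.

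In the other groups Mcm5 ranged from 7.78 to 165 RPKM. TSA(0-8h) embryos measured 165, 7.78 and 9.05 RPKM, TSA(0-8h)+VC(0-8h) embryos 127 and 123 RPKM, VC(8-15h) embryos 75 and 163 RPKM, and the VC(0-8h) embryo 23 RPKM. The late VC term over all embryos was 2.61 (SE 1.19, unadjusted p = 0.0333, adjusted p = 0.763).

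Counted over all member entries with a read in the embryos compared, those with every sequentially treated embryo above every control embryo were 3 of 12 (Cdc6, Cdt1 and Mcm5), where 4.9% of all such entries in the tables did so. Those with every embryo below were 2 of 12, Mcm7 and the longer Dbf4 entry, where 2.22% of all entries did so. The 12 include both Dbf4 entries. Dbf4 was chosen on values of these same sequentially treated embryos, so its part in this count is no support, and Mcm7 alone remains without it. In TSA(0-8h) against control 0 of 11 were above (1.73% of all entries) and 0 of 11 below (3.71%). In the sequential treatment against TSA(0-8h), leaving Dbf4 aside, 1 of 10 was above (Cdt1, 5.85% of all entries) and 0 of 10 below (1.15%). These shares include entries near 0, which can hardly separate. In the sequential treatment against control, 3416 of the 15114 entries passed the filter, but 10 of the 12 member entries did. Among those tested, 20% of member entries and 14.7% of all entries were higher at an unadjusted p under 0.05 by limma. No enrichment of the members is read from these counts. In the same embryos the stage markers also differed: the 11 two-cell markers summed to 372 to 591 RPKM in sequentially treated embryos, 7.58 to 318 RPKM in controls and 149 to 418 RPKM in TSA(0-8h) embryos. The 10 oocyte markers summed to 389 to 798 RPKM in sequentially treated embryos, 281 to 1219 RPKM in controls and 851 to 1117 RPKM in TSA(0-8h) embryos. Two-cell markers thus did not overlap between sequentially treated embryos and controls, nor oocyte markers between sequentially treated and TSA(0-8h) embryos, and their part in the member differences was not tested. With 3 embryos against 3 an exact permutation test of a single gene cannot go below p = 0.1. The filter kept an entry with 1 RPKM in all 3 embryos of either group, and Cdc6, Cdt1, Mcm4, Mcm5 and the short Dbf4 entry described below passed only through the sequentially treated group in the comparison with control, and Mcm7 only through the control group.

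**Figure D2:**
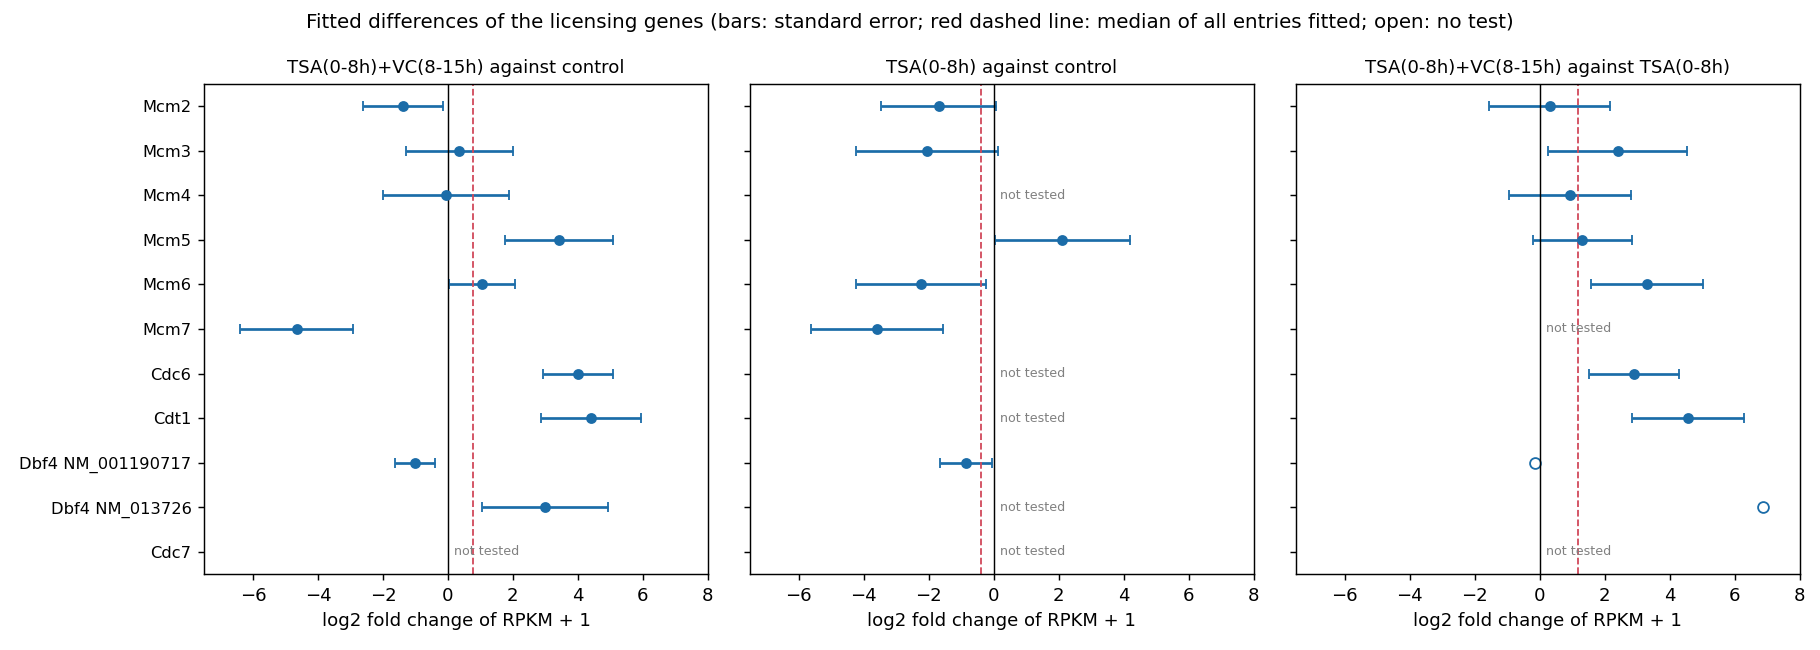
Fitted log2 fold change of RPKM + 1 (x axis) of each member entry (y axis) in the 3 pairwise comparisons, with bars of 1 standard error, the median of all entries fitted as a red dashed line, and open circles for Dbf4 where it was chosen on the contrast. Cdc6 (4.02), Cdt1 (4.41) and Mcm5 (3.43) lie to the right and Mcm7 (-4.66) to the left in the first panel, with no entry past the threshold.

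Mcm2, Mcm3, Mcm4 and Mcm6 complete the helicase ring, and in none of the pairwise comparisons did their groups separate. Mcm2 (NM_008564, mm9 chr6:88833469-88848774, minus strand) measured 88.7, 103 and 33.4 RPKM in control embryos, 22.4, 0.949 and 203 RPKM in TSA(0-8h) embryos and 39.1, 10.9 and 36.2 RPKM in sequentially treated embryos. It measured 66.5 and 69.2 RPKM with TSA(0-8h)+VC(0-8h), 97.2 and 18.2 RPKM with VC(8-15h) and 92.4 RPKM with VC(0-8h). The 3 TSA(0-8h) embryos alone held both the lowest and the highest value of the series.

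Mcm6 (NM_008567, mm9 chr1:130228168-130256233, minus strand) overlapped between all groups of 3 and ranged from 0.618 to 133 RPKM under TSA alone. Control embryos measured 19.3, 75.7 and 78.3 RPKM, TSA(0-8h) embryos 4.45, 0.618 and 133 RPKM, and sequentially treated embryos 98.3, 77.8 and 142 RPKM. The difference of TSA(0-8h)+VC(8-15h) from TSA(0-8h) was 3.30 on the log2 scale (SE 1.72, adjusted p = 0.337), and TSA(0-8h) replicate 3 lay inside the range of the other group. TSA(0-8h)+VC(0-8h) embryos measured 125 and 89.7 RPKM, VC(8-15h) embryos 62 and 0.524 RPKM, and the VC(0-8h) embryo 231 RPKM.

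Mcm3 (NM_008563, mm9 chr1:20793055-20810359, minus strand) differed more within groups than between them. It measured 4.6, 167 and 43.7 RPKM in control embryos, 140.1, 0.0443 and 3.01 RPKM in TSA(0-8h) embryos, where 0.0443 RPKM is 1 read, and 139, 2.72 and 169 RPKM in sequentially treated embryos. The remaining embryos measured 13.8 and 53.4 RPKM with TSA(0-8h)+VC(0-8h), 65 and 2 RPKM with VC(8-15h) and 62.2 RPKM with VC(0-8h).

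Mcm4 (NM_008565, mm9 chr16:15623990-15637493, minus strand) was among the least abundant subunits, with a median of 8.26 RPKM over the 14 embryos. It measured 0.206, 126 and 8.1 RPKM in control embryos, 0.277, 0.321 and 105 RPKM in TSA(0-8h) embryos and 47.7, 8.42 and 1.75 RPKM in sequentially treated embryos. Values were 2.39 and 23.3 RPKM with TSA(0-8h)+VC(0-8h), 68.1 and 1.7 RPKM with VC(8-15h) and 41.8 RPKM with VC(0-8h). The log2 fold change against control was -0.05 for TSA(0-8h)+VC(8-15h) (SE 1.93), and its sign depended on the pseudocount.

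The subunits form the ring in equal numbers, but their measured RPKM values were not equal in any group. Only in VC(8-15h) replicate 1 and TSA(0-8h)+VC(0-8h) replicate 2 were all of Mcm2 to Mcm7 at 10 RPKM or more, and the highest was 1.64 and 5.28 times the lowest there. In the other 12 embryos this ratio ran from 38.0 in the VC(0-8h) embryo to 1449 in sequentially treated replicate 2, where Mcm6 was at 77.8 RPKM and Mcm7 at 1 read. Which subunit was lowest changed from embryo to embryo: Mcm7 in 6, Mcm4 in 4, and Mcm3 or Mcm5 in 2 each. The paper made each library from a part of the RNA of a single embryo, with PCR amplification. The share of sampling and amplification in these ratios was not tested.

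The sum of the MCM subunits did not separate the groups. It was 360 ± 135 RPKM in control embryos, 285 ± 253 RPKM in TSA(0-8h) embryos and 323 ± 141 RPKM in sequentially treated embryos (mean ± SD, n = 3 each), with overlap between all of them. The lowest sum was 11.4 RPKM in TSA(0-8h) replicate 2, from 7813871 reads, and the highest was 509 RPKM in TSA(0-8h) replicate 3. Of the 10 member genes, 4 were at 1 RPKM or more in TSA(0-8h) replicate 2, while all 10 were in sequentially treated replicate 3 and in the VC(0-8h) embryo. Over all genes, these embryos had 3556, 5720 and 6244 entries at 1 RPKM or more, and the part of overall detection in the member counts was not tested.

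**Figure D3:**
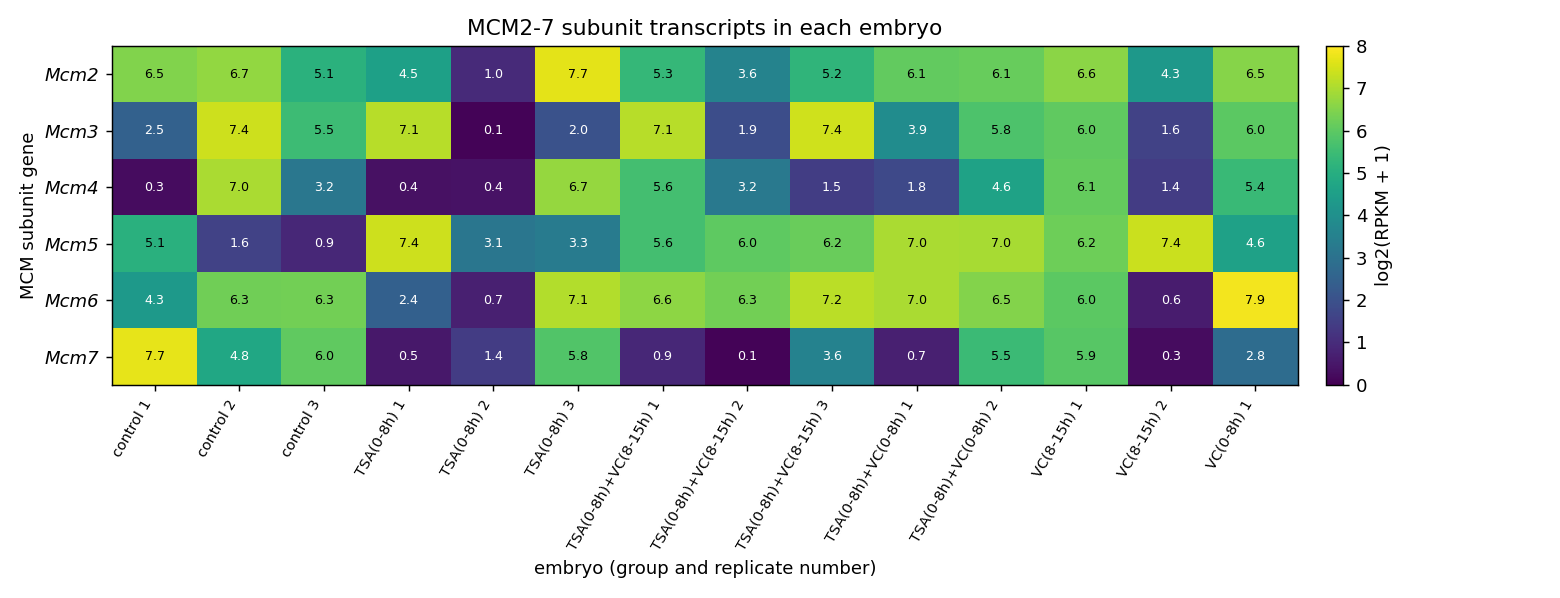
Log2(RPKM + 1) of the MCM subunit genes (rows) in each embryo (columns, by group and replicate number), with the value printed in each cell and as colour. The row of Mcm7 is dark in all but 1 of the sequentially treated embryos, and the column of TSA(0-8h) replicate 2 is dark for most subunits, with a sum of 11.4 RPKM.

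Dbf4 (mm9 chr5:8396973-8422716, minus strand), the regulatory subunit of the Cdc7 kinase, had the highest summed RPKM of the members in all 14 embryos, a rank that rests in part on the short entry described next. The RPKM summed over its entries was 327, 3274 and 3923 in control embryos, 476, 213 and 278 in TSA(0-8h) embryos and 3170.0, 1127 and 2021 in sequentially treated embryos. It was 477 and 3592 with TSA(0-8h)+VC(0-8h), 1256 and 1584 with VC(8-15h) and 3604 with VC(0-8h). All sequentially treated sums exceeded all TSA(0-8h) sums, with 2106 ± 1024 against 323 ± 137 RPKM (mean ± SD, n = 3 each), which is the difference that Dbf4 was selected on.

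That difference was carried by an entry of very short length. RPKM values move in steps of 1 read, and the steps gave a length of 2441 bases for NM_001190717 and of 46 bases for NM_013726. A single read on the shorter entry is worth between 1.60 and 7.19 RPKM, depending on the depth of the library, while a read on the longer entry is worth at most 0.136 RPKM. Over the 14526 entries with a recovered length, 117 (0.805%) were under 100 bases and the median was 2829 bases. Where in the gene the 46 bases lie is not given in the sources used here.

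Taken alone, the longer Dbf4 entry did not separate TSA(0-8h)+VC(8-15h) from TSA(0-8h). NM_001190717 measured 327, 369.7 and 437 RPKM in control embryos, 476, 197 and 96.5 RPKM in TSA(0-8h) embryos and 317, 171 and 121 RPKM in sequentially treated embryos. The last 2 groups overlapped, with a log2 fold change of -0.15, while every sequentially treated embryo was below every control embryo (log2 fold change -0.998, SE 0.62, adjusted p = 0.415). This entry held 477 and 307 RPKM with TSA(0-8h)+VC(0-8h), 390.2 and 301 RPKM with VC(8-15h) and 170.1 RPKM with VC(0-8h), so it was above 96 RPKM in all 14 embryos.

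The shorter entry was at 0 in some embryos and very high in others. NM_013726 measured 0, 2904 and 3486 RPKM in control embryos, from 0, 917 and 2179 reads, and 0, 16.7 and 181 RPKM in TSA(0-8h) embryos, from 0, 6 and 98 reads. In sequentially treated embryos it measured 2853, 957 and 1899.9 RPKM, from 570, 342 and 1073 reads, a log2 difference of 6.87 from TSA(0-8h) embryos. The 3 TSA(0-8h) embryos lay below all 3 sequentially treated embryos but overlapped the controls through control replicate 1.

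Values of 0 on the short entry were found in 3 embryos, all of them replicate 1 and of pool 1. They were control replicate 1, TSA(0-8h) replicate 1 and TSA(0-8h)+VC(0-8h) replicate 1. The other pool 1 embryos, sequentially treated replicate 1 and VC(8-15h) replicate 1, had 570 and 393 reads. The remaining values were 3285 RPKM in TSA(0-8h)+VC(0-8h) replicate 2, 866 and 1283 RPKM with VC(8-15h) and 3434 RPKM with VC(0-8h).

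As a share of all Dbf4 reads, the short entry took 12.9% (95% Wilson interval 12.1 to 13.7%) and 13.1% (12.6 to 13.6%) in control replicates 2 and 3. It took 0.16% (0.0732 to 0.348%) and 3.42% (2.81 to 4.15%) in TSA(0-8h) replicates 2 and 3, and 14.5% (13.4 to 15.6%), 9.55% (8.63 to 10.6%) and 22.8% (21.6 to 24.0%) in sequentially treated replicates 1 to 3. The highest share, 27.6% (25.8 to 29.4%), was in the VC(0-8h) embryo. With 0 of 4327, 0 of 3514 and 0 of 3795 reads in the 3 embryos at 0, a count of 0 allows shares of up to 0.0693%, 0.0854% and 0.0791%, taken as 3 reads of the total, and the upper Wilson bounds are 0.0887%, 0.109% and 0.101%. Amplified reads are not independent molecules, so these limits cover counting error only.

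Taken over both entries, Dbf4 reads did not separate the contrast on which the gene was chosen. Reads of both entries per kilobase of the joint length of 2487 bases, scaled to 1000000 reads, were 468, 193 and 98.0 in TSA(0-8h) embryos and 364, 185 and 154 in sequentially treated embryos. The means were 253 ± 192 and 234 ± 113 (SD, n = 3 each), and the controls, at 321, 417 and 493, averaged 410.2 ± 86.4. On this scale the range over the 14 embryos was from 98.0 to 493, against 213 to 3923 for the summed RPKM. The joint value was above all other members in 10 of the 14 embryos, and below Mcm2 in TSA(0-8h) replicate 3, Cdt1 in sequentially treated replicate 3 and VC(8-15h) replicate 2, and Mcm6 in the VC(0-8h) embryo, where it was 230.5 against 230.9.

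**Figure D4:**
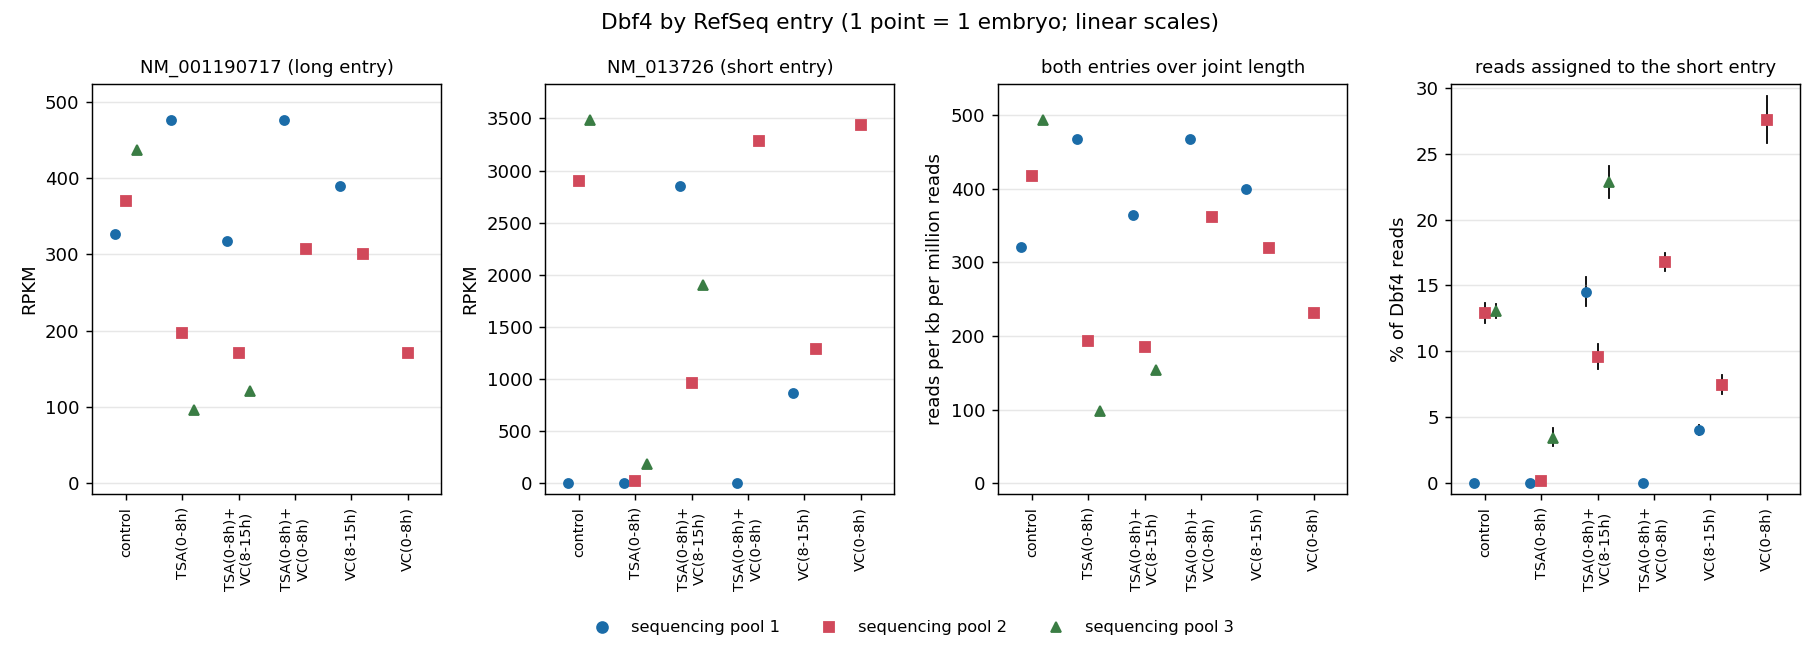
Dbf4 in the 14 embryos by treatment group (x axis): RPKM of the long and of the short entry, reads of both entries per kilobase of joint length scaled to library size, and the percent of Dbf4 reads on the short entry with 95% Wilson intervals as bars. The TSA(0-8h) embryos are at 0 to 181 RPKM on the short entry and the sequentially treated embryos at 957 to 2853 RPKM, while the joint values of the latter, 154 to 364, lie within the range of the former, 98.0 to 468.

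In the fit over all 14 embryos, the TSA term was -2.64 for the short Dbf4 entry and -0.45 for the long entry, given with no test since the embryos that chose Dbf4 enter it. In the sequential treatment against control the short entry had a log2 fold change of 3.00 (SE 1.94, adjusted p = 0.438), which turned to -0.88 without control replicate 1. With the replicate number as a block the same fold change was past the threshold (limma, adjusted p = 2.57e-06), whereas the sum over both entries gave 0.26 (adjusted p = 0.897). The differences of the short entry within replicates 1 to 3 were 11.5, -1.60 and -0.88. The variance behind the call with the block was drawn towards that of other entries. The differences had opposite signs, so no difference is read from that call. These values share the sequentially treated embryos with the contrast that chose the gene.

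The summed RPKM of Dbf4 across the 14 embryos was most like that of Abcf3, an ATP-binding cassette F protein, H3f3a, a gene of histone H3.3, and Eif4e2, a cap-binding protein. Pearson's r of log2(summed RPKM+1) was 0.88, 0.81 and 0.81, the highest of 4371 symbols at 1 RPKM or more in at least 7 embryos. All points share library depth and the normalization to it, and r is a description. Among the members, r with Dbf4 was highest for Mcm3 (0.65) and lowest for Mcm5 (-0.11), and Cdc7 stood at 0.06. This order covers 8 of the 9 other members, since Cdc6 reached 1 RPKM in 6 embryos only, and it rests on the summed RPKM, to which the short entry adds much. Abcf3, for example, measured 2.42, 0.701 and 0.155 RPKM in TSA(0-8h) embryos and 123, 21.3 and 54.1 RPKM in sequentially treated embryos. Dbf4 was chosen on the difference between these groups, so genes picked for likeness to it tend to carry that difference. The Abcf3 values are therefore no separate evidence.

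Cdc7 (mm9 chr5:107393341-107413451, plus strand), the catalytic partner of Dbf4, summed to 2.02 RPKM or less in 7 of the 8 TSA-treated embryos and to 39.9 RPKM in the other, TSA(0-8h) replicate 3. NM_009863 measured 5.09, 0.393 and 10.5 RPKM in control embryos, 0, 0.388 and 39.9 RPKM in TSA(0-8h) embryos, 0, 0.607 and 1.34 RPKM in sequentially treated embryos and 0 and 0.0514 RPKM in TSA(0-8h)+VC(0-8h) embryos. Without TSA it reached 5.5 and 178 RPKM in VC(8-15h) embryos and 52.8 RPKM in the VC(0-8h) embryo. The TSA term over all embryos was -2.84 (SE 1.37, unadjusted p = 0.044, adjusted p = 0.974). The summed values of the 6 embryos without TSA ran from 0.393 to 178 RPKM, and 3 of the 8 TSA-treated embryos lay inside that range, namely TSA(0-8h) replicate 3 and sequentially treated replicates 2 and 3.

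Cdc7 did not pass the filter in the pairwise comparisons, and its other entries added little. NM_001271568 was listed at 0 in all 14 embryos, and NM_001271566 was above 0 in sequentially treated replicate 2 only, at 1.41 RPKM. Dbf4 and Cdc7 act as a pair, and per length the joint Dbf4 value was above Cdc7 in all 14 embryos. The gap differed widely between embryos. The joint Dbf4 value was 1.798 times Cdc7 in VC(8-15h) replicate 2, 2.46 times in TSA(0-8h) replicate 3 and 4.36 times in the VC(0-8h) embryo, but 1061 times in control replicate 2 and 7039 times in TSA(0-8h)+VC(0-8h) replicate 2, and Cdc7 was at 0 in 3 embryos.

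The genes that act around licensing were taken from 4 lists of 54 genes in all. No entry of these lists passed the threshold in any comparison. In the sequential treatment against control, 28 of their 70 entries were tested, and 13 of these passed the filter only through the sequentially treated embryos, so counts in the upward direction follow the filter in part. At an unadjusted p under 0.05, 8 of the 28 were higher and 0 lower, beside 14.7% and 3.72% of all entries, and all 8 were among those 13. By list they were 3 of 9 licensing regulators, 1 of 3 origin recognition entries, 3 of 9 helicase activation entries and 1 of 7 entries of the fork and its polymerases.

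Against TSA(0-8h) alone, 14 of the 28 wider entries tested passed only through the sequentially treated embryos, 6 of 9 among both the helicase activation entries and the licensing regulators. At an unadjusted p under 0.05, 4 of 28 were higher, all of them among those 14, and 1 was lower, beside 16.4% and 2.22% of all entries. In TSA(0-8h) against control, 1 of 21 was higher and 1 lower, beside 5.46% and 9.73%. Of these 21 entries, 6 passed only through the TSA(0-8h) embryos, among them the higher one (Orc6). Another 7 passed only through the controls, among them the lower one (Tipin). The TSA term over all embryos had 2 higher and 1 lower of 52, beside 1.96% and 2.63% of all entries, and late VC 7 higher and 0 lower of 52, beside 5.18% and 1.14%. No direction of the lists is read from these counts.

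Geminin (Gmnn, NM_020567), the inhibitor of Cdt1, was higher in all sequentially treated embryos than in the controls, as was Cdt1. It measured 52.1, 2.98 and 0.678 RPKM in control embryos and 121, 243 and 202 RPKM in sequentially treated embryos (log2 fold change 4.69, SE 1.45, adjusted p = 0.110). TSA(0-8h) embryos measured 7.79, 1187 and 1.48 RPKM and spanned both groups. In VC(8-15h) replicate 2, where Cdt1 was highest, Gmnn was at 1037 RPKM, and in the remaining embryos it measured 206 RPKM (VC(8-15h) replicate 1), 15.7 and 45.3 RPKM (TSA(0-8h)+VC(0-8h)) and 309 RPKM (VC(0-8h)).

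The entry NM_001163791 of Orc6, a subunit of the origin recognition complex, and Mcmbp, which binds the MCM ring, were near 0 in controls. Orc6 (NM_001163791) measured 1.21, 0.191 and 1.06 RPKM in control embryos, 465, 155 and 5.36 RPKM in TSA(0-8h) embryos and 26.6, 25.8 and 75.5 RPKM in sequentially treated embryos. The log2 fold changes against control were 5.46 (SE 2.06, adjusted p = 0.179) and 4.45 (SE 1.51, adjusted p = 0.121). Mcmbp (NM_145955) measured 0.355, 0.982 and 0.478 RPKM in control embryos and 26, 11.1 and 55.2 RPKM in sequentially treated embryos (log2 fold change 4.06, SE 1.38, adjusted p = 0.121). High Mcmbp was not limited to the sequential treatment, with 21.8, 26.7 and 0.246 RPKM in TSA(0-8h) embryos, 26.9 and 42.6 RPKM with TSA(0-8h)+VC(0-8h), 61 RPKM with VC(0-8h) and 2.17 and 0.843 RPKM with VC(8-15h). Orc6 measured 78.6 and 24.1 RPKM with TSA(0-8h)+VC(0-8h), 31.9 and 0.2 RPKM with VC(8-15h) and 0.154 RPKM with VC(0-8h).

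Tipin, a fork protection factor, was at 3.01 RPKM or less under TSA alone. NM_025372 measured 147, 109 and 93 RPKM in control embryos, 3.01, 0.423 and 0 RPKM in TSA(0-8h) embryos and 109, 69.5 and 55.2 RPKM in sequentially treated embryos. The log2 fold change was -6.01 for TSA(0-8h) against control (SE 1.99, adjusted p = 0.137) and 5.41 for the sequential treatment against TSA(0-8h) (SE 1.65, adjusted p = 0.0804). In both comparisons Tipin passed the filter only through the group where it was higher. The TSA(0-8h)+VC(0-8h) embryos measured 412 and 135 RPKM, the VC(8-15h) embryos 92 and 97.4 RPKM and the VC(0-8h) embryo 3.49 RPKM.

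Mcm10, which acts on the helicase at firing, and Wdhd1, which links it to polymerase alpha, were near 0 with TSA alone and in 2 of the 3 controls. Mcm10 (NM_027290) measured 0.0947, 0.183 and 0.195 RPKM in TSA(0-8h) embryos and 46.6, 39.8 and 81.9 RPKM in sequentially treated embryos (log2 fold change 5.56, SE 1.43, adjusted p = 0.0638). Wdhd1 (NM_172598) measured 0.476, 0.0613 and 1.77 RPKM in TSA(0-8h) embryos and 13.9, 34.9 and 55.9 RPKM in sequentially treated embryos (log2 fold change 4.26, SE 1.39, adjusted p = 0.0985). In control embryos Mcm10 was at 5.86, 0 and 0.927 RPKM and Wdhd1 at 3.76, 0.105 and 0.159 RPKM. Both were also found in other treatments. Mcm10 measured 0.0877 and 20.9 RPKM with TSA(0-8h)+VC(0-8h), 35.9 RPKM with VC(0-8h) and 2.32 and 0.958 RPKM with VC(8-15h). Wdhd1 measured 9.99 and 1.44 RPKM with TSA(0-8h)+VC(0-8h), 10.6 RPKM with VC(0-8h) and 26.8 and 2.41 RPKM with VC(8-15h).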

How the data were processed

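RNA-seq libraries of 14 single embryos were analysed. The authors trimmed single-end reads, mapped them to mm9 with TopHat2 (version not given in the sources used here), counted reads on exons and deposited RPKM values per RefSeq entry, normalized to total counts and transcript length. Of the deposited entries, 25250 carried a symbol, and values were summed per symbol only where stated. Library totals and reads were recovered from the RPKM steps with exact fractions, and a whole number of reads over a whole length was found for 14526 of the 14532 entries above 0 in 2 or more embryos. These covered between 99.5% and 99.9% of reads per embryo.

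Groups and replicate numbers came from the sample labels. For each pairwise comparison, entries that reached 1 RPKM in every embryo of 1 of the groups entered limma 3.58.1 in R 4.3.3 (lmFit, eBayes with trend, two-sided) on log2(RPKM+1), and the additive fit of all 14 embryos used 1 RPKM in any 3. Benjamini-Hochberg adjustment ran over all entries tested, with a threshold of 0.05. The recovery of reads and the limma fit were also run on simulated data. The limma simulation gave every entry the same spread, unlike these data, so it does not show how the fit performs on them. P-values measure the spread between embryos, with the variance of each entry drawn towards a trend over all entries tested. They and the SE values therefore rest in large part on the spread of other entries. The paper describes the nuclear transfers of the TSA(0-8h)+VC(8-15h) embryos as separate experiments. Python 3.11.15, pandas 2.3.3, numpy 2.4.6, scipy 1.17.1 and matplotlib 3.10.9 were used elsewhere, with gene coordinates from gencode vM1 on mm9 (NCBIM37) and promoter sequences from RefSeq (GRCm38.p6).

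The members, the wider lists and the tests were chosen with earlier results of these data known. Named were all members, the wider genes past the threshold, in each pairwise comparison the 3 wider entries with the smallest p among those without overlap between groups (fewer where fewer existed), and the 3 genes most like Dbf4. Alternatives were a pseudocount of 0.1, no filter, a minimum of 5 RPKM, 1 RPKM in any 3 of the 6 embryos, median-ratio scaling, entries summed per gene, a replicate block, a single fit of all 14 embryos, the sequencing pool as a covariate, each embryo left out in turn and, chosen after seeing the data, limma with voom weights on recovered reads per entry or per gene.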

Additional observations from a re-analysis of the deposited data

How the results depend on the processing

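TSA(0-8h) against control, the TSA term and the late VC term called 0 member genes under every alternative run and with any embryo left out. For the sequential treatment against control, 1 gene was called with a pseudocount of 0.1 and with a minimum of 5 RPKM (Cdc6 in both, adjusted p = 0.0203 and 0.00461), 1 with the replicate block (Dbf4, through its short entry, whose differences within replicates had opposite signs) and 2 by voom on recovered reads, per entry and per gene (Cdc6 and Mcm7). Against TSA(0-8h), voom called 1 gene, per entry and per gene (Cdc6, adjusted p = 0.0434 and 0.0454), Dbf4 not being counted. Wherever they were called, Cdc6 passed the filter only through the sequentially treated embryos and Mcm7 only through the controls. Leaving out single embryos gave 0 member genes in each comparison.

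The count over all entries was far less stable. It was 1 for the sequential treatment against control in the limma fit above, 118 with a pseudocount of 0.1, 211 with a minimum of 5 RPKM and 20 with the replicate block. The paper, which tested counts with edgeR, called more transcripts in that comparison than the limma fit above. With an embryo left out the count was 0 to 327 in the pairwise comparisons (up to 100, 316 and 327 in the first, second and last). Same-numbered embryos shared a pool, but their deviations correlated at 0.00995 to 0.0677, so the numbers were not taken to pair them.

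Member fold changes that are not past the threshold changed sign in places. In the sequential treatment against control, Mcm3 gave -0.45 with median-ratio scaling and -0.96 to 2.15 with an embryo left out. Mcm4 gave 0.42 with a pseudocount of 0.1, 0.17 with voom per entry and per gene, and -1.65 to 1.71 with an embryo left out. Dbf4 summed over its entries gave 0.26, where the long entry alone is negative, its reads summed per gene gave -1.25 with voom, where the short entry alone is positive, and the short entry gave -0.88 to 5.01 with an embryo left out. Mcm2 with an embryo left out ran from -3.34 to 0.0161 in TSA(0-8h) against control and from -1.41 to 1.95 against TSA(0-8h), where median-ratio scaling gave -0.76, and Mcm4 there ran from -0.15 to 3.06.

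For the TSA term, Mcm6 gave 0.0251 with a pseudocount of 0.1, 0.0833 with voom per entry and 0.0787 per gene, and -1.22 to 0.75 with an embryo left out, Cdt1 gave 0.25 with voom, and -1.03 to 0.19 with an embryo left out, and Mcm3 ran from -1.46 to 0.18. For late VC, Mcm2 gave 0.0889 with the pool as covariate and -1.03 to 0.58 with an embryo left out, Mcm3 ran from -0.13 to 1.89, Mcm6 from -0.10 to 2.30 and Cdc7 from -0.43 to 1.75. The causes were not tested. The log2 fold changes of Cdc6, Cdt1, Mcm5 and Mcm7 in the sequential treatment against control kept their sign in every alternative run. Their groups did not overlap there, so most of these runs could not reverse the sign, and the kept sign is no further evidence. With 3 embryos a group and the spread seen here, a gene at a few reads per embryo cannot be told from one at 0.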
